A study of Mus musculus with 5 samples.

Results

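The genes described here encode the cyclins that act in the G1 phase of the cell cycle, the kinases they activate and 1 inhibitor of those kinases, in mouse E14 embryonic stem cells. They are set by a list of names: the D cyclins Ccnd1, Ccnd2 and Ccnd3, the E cyclins Ccne1 and Ccne2, the cyclin-dependent kinases Cdk4, Cdk6 and Cdk2, and Cdkn1b, which encodes p27. These are 9 of 22267 genes in the deposited table, and FPKM (fragments scaled to transcript length and to the number of mapped fragments) was summed over the RefSeq transcripts of each. All 9 have an entry, but Cdk6 carries a hyphen instead of a value in 4 of the 5 libraries and Ccnd2 has a mean below 1 FPKM, so 7 entered the comparisons across all genes.

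D cyclins bind Cdk4 and Cdk6 and start the phosphorylation of the retinoblastoma protein, RB, which releases E2F transcription factors. E cyclins bind Cdk2 and carry the cell into S phase, and p27 binds and inhibits cyclin E with Cdk2. Mouse embryonic stem cells are known for a short G1 phase and for cyclin E with Cdk2 activity through most of the cycle, and leukemia inhibitory factor (LIF) holds them undifferentiated through the transcription factor Stat3.

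The study sequenced messenger RNA of 5 libraries, 1 per group, to compare normal E14 cells with E14 cells labelled as overexpressing 2 glycolytic enzymes, Hk2 (a hexokinase) and Pkm2 (a pyruvate kinase isoform). The labels give C57BL/6 as the strain of all 5, and no source used here says how the genes were introduced or in how many clones. Both kinds of cell were grown with LIF. Both were also deprived of it for 24 hours, after which the label says LIF was added, and this culture is called the withdrawal here. The last library came from overexpressing cells kept for 40 days without LIF, and normal cells at 40 days were not analysed here. Groups of 1 library have no replicate error, so differences between libraries are given as values, and neighbours in an order of levels cannot be told apart by any spread.

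Each library was estimated at 36375000 to 40081000 fragments, from the FPKM step that a single fragment makes in genes with 1 transcript. Only steps within a window fixed beforehand were used, and that window limits the estimate. These depths, their evenness and the fragment counts below are therefore rough. As a check of the labels, Hk2 was at 76.2 (normal) and 98.6 FPKM (overexpressing) with LIF, at 49.7 and 59.0 FPKM after withdrawal and at 29.0 FPKM at 40 days. Pkm, with no split into its isoforms, was at 510, 567, 611, 564 and 495 FPKM in the same order. Neither was 2-fold higher in an overexpressing library and Pkm was lower there after withdrawal, so those libraries are named by their label, as labelled cells. The Y-linked Ddx3y was at 11.8 FPKM in both normal libraries, at 0.0225 and 0.0130 FPKM in the labelled libraries with LIF and after withdrawal, and at 1.79 FPKM at 40 days. Of the other Y-linked genes looked up, Uty stood at 3.25 and 3.74 FPKM in the normal libraries, at 0.00973 and 0.0113 FPKM in those labelled libraries and at 0.369 FPKM at 40 days. Eif2s3y stood at 34.1 and 35.1, at 16.3 and 22.6, and at 4.58 FPKM, and Kdm5d was listed at 0 in all but the 40-day library. Cell type therefore moves together with other differences between the cells, whose part in any result was not tested. The 40-day library differs in these genes from the earlier labelled libraries as well, and the part of that was not tested either. The 6 pluripotency markers summed to 2219 to 2862 FPKM in the 4 libraries of the first 24 hours and to 1632 FPKM at 40 days. The 9 markers of extraembryonic endoderm summed to 6.20 to 33.2 FPKM in those 4 libraries and to 305 FPKM at 40 days, where Sox17 and Afp were listed at 0. The 8 fibroblast or feeder markers summed to 0.993 and 1.65 FPKM in normal cells with LIF and after withdrawal. In labelled cells they summed to 2.84 and 4.95 FPKM in the same order and to 5.92 FPKM at 40 days. Of these, Thy1 stood at 0.792 and 1.27 FPKM in normal cells and at 2.54, 4.32 and 4.26 FPKM in labelled cells, and Postn was listed at 0 in 4 libraries. The 5 mesoderm markers summed to 0.747 to 2.04 FPKM. The 4 neural markers summed to 3.57 to 53.1 FPKM, with Tubb3 listed at 0 in normal cells after withdrawal. The 40-day library also stood apart across genes, with Spearman correlations of 0.864 to 0.897 to the others, against 0.927 to 0.954 among those 4.

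Ccnd3 was the most abundant D cyclin transcript in every library and was lower in each library taken after LIF removal. With LIF it was at 152 FPKM in normal and 192 FPKM in labelled cells, after withdrawal at 63.1 and 82.3 FPKM in the same order, and at 40 days at 54.3 FPKM. Both libraries with LIF lie above the 3 others, and the level after withdrawal was 0.414 of that with LIF in normal and 0.429 in labelled cells. Across both cell types the withdrawal difference was -1.23 ± 0.070 on the log2(FPKM + 1) scale (SE, limma, 4 libraries), with an unadjusted p of 0.00118, the 21st smallest of 9590 genes, and an adjusted p of 0.324. No gene passed an adjusted p of 0.05 for withdrawal in limma (0 of 9590, 0.0%), and 1154 genes (12.0%) had an unadjusted p under 0.05. With 1 residual degree of freedom and the spread of these libraries the fit has little power, so neither this count nor any adjusted p below shows that a level did not differ. In bulk RNA, fewer cells of a type and less RNA per cell cannot be told apart.

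Some other values differed with withdrawal as well. The LIF response genes Socs3, Klf4, Tbx3 and Bcl3 summed to 197 (normal) and 214 FPKM (labelled) with LIF, to 14.0 and 11.8 FPKM after withdrawal and to 22.0 FPKM at 40 days. Over all genes, 5.51% were at least 2-fold lower after withdrawal in normal and 6.07% in labelled cells. Of 6 pluripotency markers, 3 were in each cell type, Nanog, Zfp42 and Esrrb. Of 3 neural markers in the comparison 1 was, Tubb3, at 31.7, 48.4, 0, 3.27 and 16.8 FPKM in that order, while Sox1 stood at 1.29 to 3.08 FPKM and Nes at 0.880 to 5.94 FPKM. Of 6 extraembryonic endoderm markers in the comparison 2 were, Lama1 and Sox7. Lama1 stood at 17.4, 23.9, 2.52, 0.436 and 77.3 FPKM, and the whole list summed to 24.3, 33.2, 7.44, 6.20 and 305 FPKM, highest at 40 days where Ccnd3 was lowest. Bysl, lower in the same 3 libraries as Ccnd3, is a gene on the opposite strand that shares 353 of the 2255 exon bases of Ccnd3 and encodes a factor of ribosome biogenesis. Bysl stood at 28.7, 25.8, 12.4, 15.0 and 11.2 FPKM in the order above. The library kit does not mark strand, so reads in the shared bases were not separated. The part of any of these in the Ccnd3 values was not tested. Ccnd3 maps to chr17:47642000-47736632 (plus strand; mm9 with the GENCODE vM1 annotation, as for every locus below; all 9 genes are protein-coding), and all its FPKM was assigned to NM_007632, while NM_001081635 and NM_001081636 were listed at 0 in all 5 libraries. A copy of its transcript, annotated as the pseudogene Ccnd3-ps, maps to chr4:138900315-138902254 with 94.95% identity over 1940 aligned bases, so the level of Ccnd3 is uncertain to the extent that reads fit both. A shorter match elsewhere had 90.06% identity over 825 bases.

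RefSeq gives Ccnd3 a pair of start sites far apart, and the 250 bases before each are shown because Ccnd3 is the member whose level differed most with LIF. Both were matched to mm9 in 1 place, at chr17:47641750-47641999 and chr17:47730166-47730415 on the plus strand. The promoter table (RefSeq, GRCm38.p6) holds sequences for 6 of the 9 genes. The STAT letters TTCNNNGAA, searched on both strands, occur in neither window, and in 7.02% of 32851 promoters of that length.
Ccnd3, upstream start: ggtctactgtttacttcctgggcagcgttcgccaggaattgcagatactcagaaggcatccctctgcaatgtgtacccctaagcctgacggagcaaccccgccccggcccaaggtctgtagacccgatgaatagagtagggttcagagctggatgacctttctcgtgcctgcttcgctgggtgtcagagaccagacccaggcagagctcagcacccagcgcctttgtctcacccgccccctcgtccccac
Ccnd3, downstream start: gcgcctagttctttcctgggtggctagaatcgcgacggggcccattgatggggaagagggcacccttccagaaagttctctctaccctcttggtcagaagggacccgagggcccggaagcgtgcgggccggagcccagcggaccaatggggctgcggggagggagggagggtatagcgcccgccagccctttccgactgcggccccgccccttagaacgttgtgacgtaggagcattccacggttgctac
Neither window holds the E2F letters TTTNNCGC on either strand, which occur in 4.28% of promoters. The GC box letters GGGCGG occur in both, as in 32.74% of promoters, and no match says only that these letters are not in these windows.

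Ccnd1, the D cyclin best known as a target of mitogen signalling, did not share the pattern of Ccnd3 at 24 hours. With LIF it was at 39.2 FPKM in normal and 45.7 FPKM in labelled cells, after withdrawal at 43.4 and 61.3 FPKM, and at 40 days at 20.3 FPKM. The highest value is that of the labelled cells after withdrawal, and the 40-day library is the lowest. Across both cell types the withdrawal difference was 0.28 ± 0.11 on the log2 scale, with an adjusted p of 0.480, and the cell type difference was 0.35 ± 0.11, with an adjusted p of 0.524 (SE, limma, 4 libraries). Ccnd1 maps to chr7:152115836-152125774 (minus strand). It shares 818 exon bases with Oraov1 on the other strand, which stood at 3.17 to 5.50 FPKM.

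Ccnd2, the remaining D cyclin, was near 0 in all libraries but that of 40 days. With LIF it was at 0.328 FPKM in normal and 0.879 FPKM in labelled cells. After withdrawal it was at 0.231 FPKM in normal cells and listed at 0 in labelled cells, and at 40 days it was at 2.44 FPKM. The 40-day level was 2.77 times that of labelled cells with LIF. A 0 can be a failed estimate, and the other 4 values correspond to about 49 to 549 fragments under the rough depth estimate above. Ccnd2 maps to chr6:127075797-127101066 (minus strand).

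**Figure D1:**
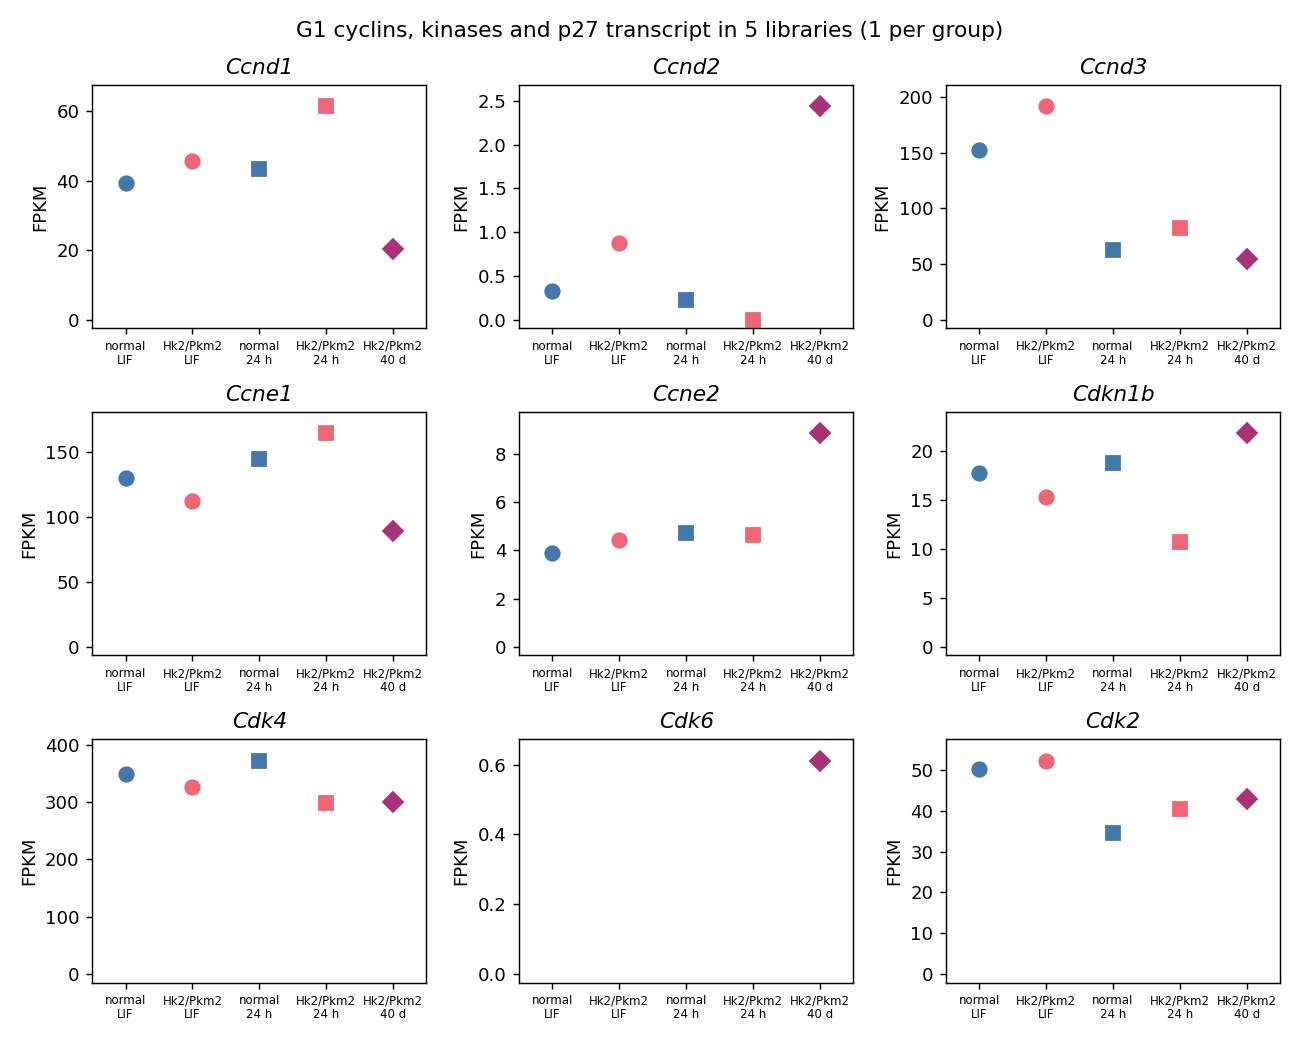
FPKM (linear axes, each with its own scale) of the 9 genes in the 5 libraries, 1 point per library, with circles for LIF, squares for the 24 hour withdrawal and diamonds for 40 days, blue for normal cells and red or purple for labelled cells. Ccnd3 is at 152 and 192 FPKM with LIF and at 54.3 to 82.3 FPKM in the other 3 libraries, Ccnd2 and Ccne2 are highest at 40 days, and Cdk6 has a value at 40 days alone.

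Together the 3 D cyclins summed to 192 FPKM in normal and 238 FPKM in labelled cells with LIF, 107 and 144 FPKM after withdrawal, and 77.0 FPKM at 40 days. FPKM is scaled to length, so these levels can be added. Ccnd3 made up 79.4% and 80.5% of the sum with LIF, 59.1% and 57.3% after withdrawal and 70.5% at 40 days, and Ccnd1 made up 20.4%, 19.2%, 40.7%, 42.7% and 26.4% in the same order. Ccnd2 stayed under 1% of the sum except at 40 days, where it was 3.16%. The order Ccnd3, Ccnd1, Ccnd2 held in all 5 libraries, but the ratio of Ccnd3 to Ccnd1 was 3.89 and 4.20 with LIF, 1.45 and 1.34 after withdrawal and 2.68 at 40 days.

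**Figure D2:**
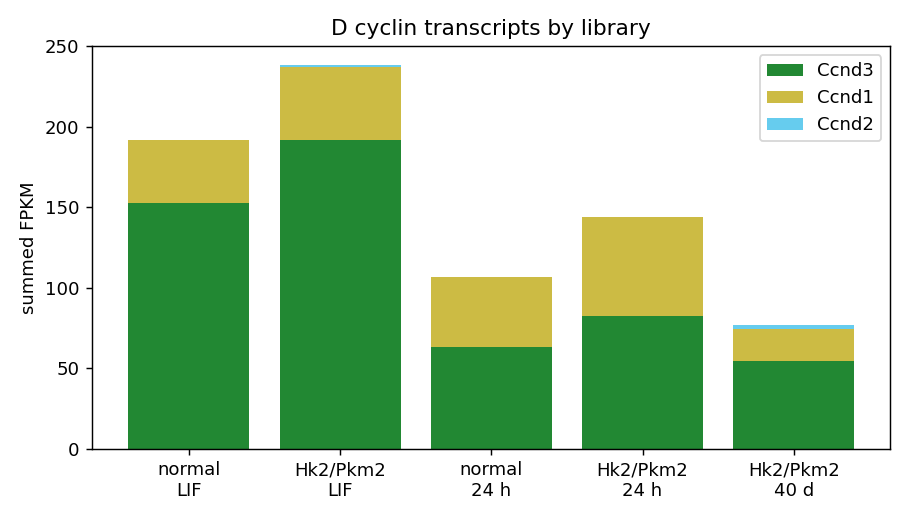
Stacked FPKM of the 3 D cyclins in each library, 1 bar per library on a linear axis from 0. The Ccnd3 segment is largest in every bar, at 79.4% and 80.5% of the sum with LIF and 57.3% to 70.5% in the 3 other libraries.

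Ccne1, which activates Cdk2 at the entry to S phase, was the more abundant E cyclin throughout. With LIF it was at 130 FPKM in normal and 112 FPKM in labelled cells, after withdrawal at 145 and 164 FPKM, and at 40 days at 89.5 FPKM. Both withdrawal libraries are above both with LIF, and the 40-day library is the lowest. The withdrawal difference across both cell types was 0.35 ± 0.14 on the log2 scale, with an adjusted p of 0.487 (SE, limma, 4 libraries). The cell type difference was -0.016 ± 0.14, with an adjusted p of 0.973 in the same limma fit, a sign that median-ratio scaling and quantile normalization turned. Ccne1 maps to chr7:38883003-38892553 (minus strand), and no gene on the opposite strand was found to share its locus.

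Ccne2, the second E cyclin, stood between 3.92 and 4.72 FPKM in the 4 libraries of the first 24 hours and at 8.85 FPKM at 40 days. It made up 2.75% to 3.79% of E cyclin FPKM in those 4 and 9.0% at 40 days. Part of the 40-day value came from NM_009830, at 3.09 FPKM there and listed at 0 in the 4 others, while NM_001037134 stood at 3.92 to 4.72 FPKM and then 5.76 FPKM. With the more abundant transcript alone, the log2 ratio of 40 days over LIF was 0.32 instead of 0.86. Ccne2 maps to chr4:11118498-11131926 (plus strand) and shares 609 exon bases with Ints8 on the other strand, which stood at 10.04 to 20.9 FPKM, above Ccne2 in every library.

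Cdk4, a kinase partner of D cyclins, was the most abundant member with a value in every library and differed least of the 7 compared. It stood at 348 and 327 FPKM with LIF in normal and labelled cells, at 372 and 298 FPKM after withdrawal and at 300 FPKM at 40 days, so that the highest value was 1.25 times the lowest. It was lower in labelled cells with LIF by a log2 ratio of -0.093, a sign that turned to 0.016 under quantile normalization, and the ratio after withdrawal was -0.32. Across both cultures the cell type difference was -0.21 ± 0.11, with an adjusted p of 0.568 (SE, limma, 4 libraries). Cdk4 maps to chr10:126500590-126504976 (plus strand). It shares 604 exon bases with Tspan31 on the other strand, at 39.1 to 43.8 FPKM.

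Cdk6, the other kinase partner of D cyclins, has a value in the 40-day library alone, 0.611 FPKM. The 4 others carry a hyphen, which no source used here explains, so no level or difference is given for them. Cdk6 maps to chr5:3343893-3523218 (plus strand), and parts of its transcript matched 2 other places, with 92.31% identity over 390 bases and a lower identity over 290 bases.

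Cdk2, the partner of E cyclins, was lower after withdrawal in both cell types. With LIF it was at 50.2 FPKM in normal and 52.3 FPKM in labelled cells, after withdrawal at 34.6 and 40.5 FPKM, and at 40 days at 42.9 FPKM. Both libraries with LIF lie above the 3 others. The withdrawal difference was -0.44 ± 0.089 on the log2 scale, with an unadjusted p of 0.0250 and an adjusted p of 0.358 (SE, limma, 4 libraries). In normal cells part of it came from NM_183417, which stood at 9.64 FPKM with LIF and was listed at 0 after withdrawal. In the other libraries this transcript stood at 7.09 to 15.9 FPKM, and the more abundant NM_016756 stood at 40.6, 40.7, 34.6, 33.4 and 26.96 FPKM (normal and labelled with LIF, normal and labelled after withdrawal, 40 days). With NM_016756 alone the log2 ratio of withdrawal in normal cells was -0.22 instead of -0.52, and that of labelled over normal cells after withdrawal was -0.049 instead of 0.22.

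Cdk2 maps to chr10:128134995-128142107 (minus strand). The 250 bases before its RefSeq start, at chr10:128142108-128142357 on the minus strand, are shown because Cdk2 and the Cdk6 gene are the members whose windows hold the E2F letters TTTNNCGC. The match, 140 bases before the start on the reverse strand, is in capitals, and the RB and E2F genes are taken up below.
Cdk2: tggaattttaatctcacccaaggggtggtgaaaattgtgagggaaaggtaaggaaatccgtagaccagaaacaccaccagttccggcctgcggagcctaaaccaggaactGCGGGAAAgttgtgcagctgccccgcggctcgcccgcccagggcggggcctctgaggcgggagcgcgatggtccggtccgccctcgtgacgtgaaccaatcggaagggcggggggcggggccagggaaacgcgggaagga
Beside Cdk2, the window of Cdk6 holds 1 such match, 198 bases before the start, and those of Ccnd3, Ccne1, Cdk4 and Cdkn1b hold none. The letters occur in 4.28% of 32851 promoters, and so few matches are no result about the members. A match is a description of the letters and not evidence of binding.

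Cdkn1b, the inhibitor, was lowest in labelled cells after withdrawal and highest at 40 days. With LIF it was at 17.7 FPKM in normal and 15.3 FPKM in labelled cells, after withdrawal at 18.8 and 10.8 FPKM, and at 40 days at 21.8 FPKM. The normal libraries are above the labelled libraries of the same culture. Across both cultures the cell type difference was -0.48 ± 0.20 on the log2 scale, with an adjusted p of 0.554 (SE, limma, 4 libraries). The withdrawal difference was -0.19 ± 0.20, with an adjusted p of 0.687, and had opposite signs in the cell types, at 0.080 in normal and -0.47 in labelled cells. The 40-day value was 2.03 times that of labelled cells at 24 hours as FPKM, and 0.96 on the log2(FPKM + 1) scale.

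Cdkn1b maps to chr6:134870419-134875531 (plus strand), and no gene on the opposite strand was found to share its locus. The 250 bases before its start, at chr6:134870169-134870418, are shown because Cdkn1b had the largest cell type difference of the 7 members compared (-0.75 after withdrawal). The window holds neither the STAT nor the E2F letters and 1 GC box.
Cdkn1b: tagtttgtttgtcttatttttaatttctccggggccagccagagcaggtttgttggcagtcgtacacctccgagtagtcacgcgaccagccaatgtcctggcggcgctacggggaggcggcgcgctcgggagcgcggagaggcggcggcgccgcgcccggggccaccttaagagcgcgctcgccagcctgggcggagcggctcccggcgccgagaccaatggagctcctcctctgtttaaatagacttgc

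Relative to the inhibitor, D cyclin transcripts were highest in labelled cells with LIF and lowest at 40 days. The summed D cyclin FPKM was 10.8 and 15.6 times that of Cdkn1b with LIF in normal and labelled cells, 5.67 and 13.3 times after withdrawal and 3.53 times at 40 days. The summed E cyclin FPKM was 7.55 and 7.62 times that of Cdkn1b with LIF, 7.94 and 15.7 times after withdrawal and 4.51 times at 40 days. D cyclins exceeded E cyclins with LIF, by 1.43 and 2.05 times, and were below them in the 3 other libraries, at 0.714, 0.850 and 0.783 of the E cyclin sum. Cdk4 stood at 1.82 and 1.37 times the D cyclin sum with LIF and at 3.49, 2.07 and 3.89 times in the 3 others. These are ratios of transcript levels and say nothing of protein, which was not measured.

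Between cell types with LIF, 0 of the 7 members in the comparison differed 2-fold, beside 9.43% of all 9590 genes (4.11% higher and 5.32% lower in the labelled library). Their log2 ratios lay between -0.21 (Ccne1) and 0.33 (Ccnd3), with a median of 0.058, beside -0.044 over all genes. After withdrawal, 0 of 7 differed 2-fold between cell types, beside 9.37% of all genes (4.19% higher, 5.18% lower), with ratios between -0.75 (Cdkn1b) and 0.49 (Ccnd1) and a median of 0.18, beside -0.021. Ccnd1, Ccnd3 and Cdk2 were higher and Cdkn1b and Cdk4 lower in the labelled library in both cultures. The signs of Cdk2 after withdrawal and of Cdk4 with LIF turned under an alternative processing. In limma 0 of 9590 genes passed an adjusted p of 0.05 for cell type (0.0%), while 918 genes (9.57%) had an unadjusted p under 0.05. Ccnd3 had the smallest p of the members, at a difference of 0.35 ± 0.070, an unadjusted p of 0.0234 and an adjusted p of 0.516 (SE, limma, 4 libraries).

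For the 24 hour withdrawal, 1 of 7 members, Ccnd3, was at least 2-fold lower in normal cells and 1 of 7, again Ccnd3, in labelled cells, beside 5.51% and 6.07% of all genes. None was 2-fold higher, beside 4.62% and 5.79% of all genes, and in either direction 10.1% and 11.9% of all genes were 2-fold different. A share of 1 in 7 rests on 1 gene and is no result about the members as a group. Their medians were 0.096 and -0.13, beside -0.0055 and 0.0042 over all genes. These comparisons share no library with each other, but each shares 1 library with each cell type comparison. The withdrawal and cell type ratios are therefore not independent.

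**Figure D3:**
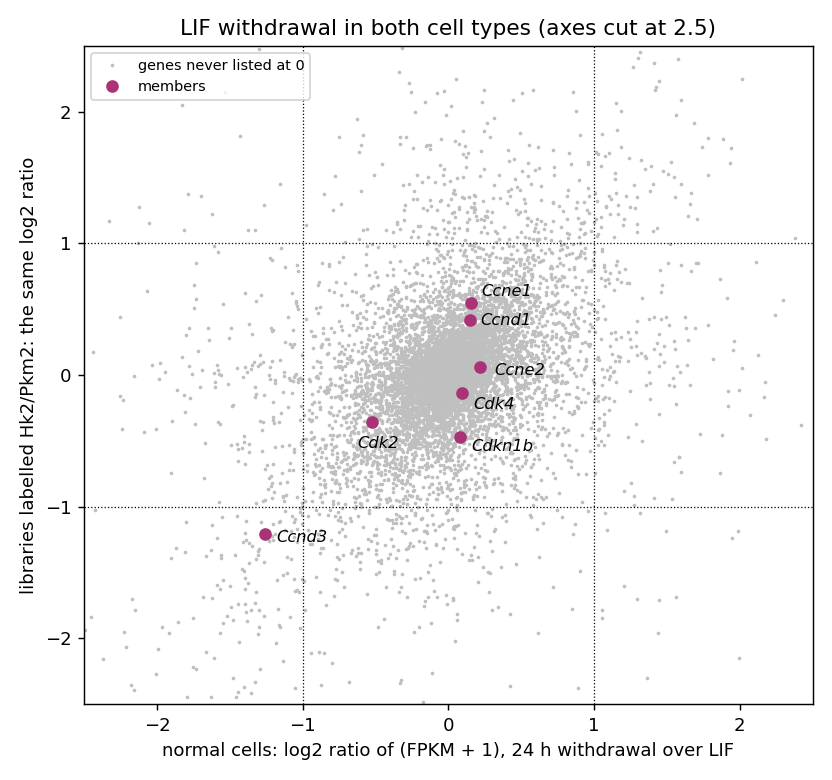
Log2 ratio of FPKM + 1, 24 hour withdrawal over LIF, in normal cells (horizontal) against cells labelled as overexpressing (vertical), for 8841 genes never listed at 0 (grey) and 7 members (purple), with dotted lines at 2-fold and both axes cut at 2.5. Ccnd3 lies more than 2-fold lower in both cell types, at -1.26 and -1.21, and the other members lie within 2-fold.

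At 40 days without LIF, 2 of 7 members were at least 2-fold lower than in labelled cells with LIF, Ccnd3 at -1.80 and Ccnd1 at -1.13, beside 8.31% of all genes lower and 22.3% different in either direction. None was at least 2-fold higher on the log2(FPKM + 1) scale, beside 14.0% of all genes, although Ccne2 stood at 2.0 times its FPKM with LIF. Against labelled cells at 24 hours, 1 of 7 was lower, Ccnd1 at -1.55, beside 5.78% of all genes, and 0 of 7 were higher, beside 12.1%, with 17.8% of all genes different in either direction. Ccnd3 differed there by -0.59 and Ccne1 by -0.87, while Cdkn1b stood at 0.96 and Ccne2 at 0.80. The median of the members was -0.28 against LIF and 0.010 against 24 hours, beside 0.076 and 0.072 over all genes. Both comparisons use the 40-day library. Of 9 endoderm markers 6 passed the filter, and all 6 were at least 2-fold higher there than in either earlier labelled library. The filter averages over all 5 libraries, and Gata6 and Dab2 passed it through their 40-day values (7.88 and 52.0 FPKM). Foxa2 did not pass, nor did Sox17 and Afp, both listed at 0 at 40 days. The count was therefore partly fixed by the filter. The part of these markers in the member values was not tested. Days without LIF and other changes of a long culture cannot be told apart with 1 library. A difference between the cells sampled cannot be told apart either. Ddx3y was at 1.79 FPKM at 40 days, against 0.0225 and 0.0130 FPKM in the labelled libraries with LIF and after withdrawal. Uty went the same way and Eif2s3y the other way.

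The other genes of the pathway are described by lists of names. A call that rests on 1 gene of a list is no result about that list. Of 5 further inhibitors of the same kinases in the comparison, Cdkn1c, which encodes p57, was the one past 2-fold in either withdrawal. It stood at 10.6 FPKM in normal and 8.11 FPKM in labelled cells with LIF, at 39.0 and 30.7 FPKM after withdrawal and at 69.2 FPKM at 40 days. All 3 libraries after LIF removal are above both with LIF, and the withdrawal difference was 1.79 ± 0.092 on the log2 scale, with an adjusted p of 0.324 (SE, limma, 4 libraries). Cdkn1a, which encodes p21, stood at 11.5, 8.29, 13.9, 9.10 and 17.1 FPKM in the order normal and labelled with LIF, normal and labelled after withdrawal, and 40 days. Like Cdkn1b it was lower in the labelled library of each culture, as were Cdkn1c and Cdkn2b. Between cell types 4 of the 5 were below 0 with LIF and 4 after withdrawal, beside 5281 and 5065 of 9590 genes. The list's median was -0.34 with LIF and -0.34 after withdrawal, beside -0.044 and -0.021 over all genes. The list had a median log2 ratio of 0.31 and 0.44 for withdrawal in normal and labelled cells and 0.82 for 40 days over LIF, beside -0.0055, 0.0042 and 0.076 over all genes.

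Of the RB family and E2F factors, 13 of 13 were in the comparison, and 1 was at least 2-fold higher and 1 lower in each withdrawal. Over all genes 4.62% were higher and 5.51% lower in normal cells, and 5.79% and 6.07% in labelled cells. In normal cells the list genes past 2-fold were Tfdp2, a dimer partner of E2F (1.45), and Tfdp1. Tfdp1 was listed at 0 after withdrawal in normal cells and at 24.4 to 39.3 FPKM elsewhere. In labelled cells they were E2f5 (1.48), a repressor E2F, and E2f2 (-1.32), an activator. E2f5 stood at 5.40 FPKM in labelled cells with LIF and at 13.0 to 16.8 FPKM in the 4 others, so 1 library sets its differences, also that between cell types with LIF (-1.28). Rb1 stood at 4.29 and 1.85 FPKM in normal and labelled cells with LIF, 6.82 and 3.36 FPKM after withdrawal and 6.08 FPKM at 40 days. It was lower in the labelled library of each culture, at a cell type difference of -0.87 ± 0.16 and an adjusted p of 0.512 (SE, limma, 4 libraries). At 40 days over LIF, Tfdp2 (1.46), Rb1 (1.31) and E2f5 (1.13) were past 2-fold higher and E2f2 (-1.56) lower, and against 24 hours Tfdp2 (1.15) was higher. Between cell types after withdrawal Tfdp1 was the one past 2-fold, through its 0. The list's median was 0.012 and 0.17 for withdrawal in normal and labelled cells and 0.31 for 40 days over LIF.

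The 16 G1/S targets of E2F, such as the replicative helicase subunits Mcm2 to Mcm7, had medians close to 0. Their median log2 ratio was -0.064 for withdrawal in normal and -0.042 in labelled cells, and 0.023 for 40 days over LIF. Between cell types it was 0.096 with LIF and 0.098 after withdrawal. Single genes lay further off. For withdrawal in normal and labelled cells Mcm4 was at -0.54 and -0.82, Mcm7 at -0.72 and 0.16, and Mcm5 at -0.074 and 0.54. In normal cells after withdrawal Cdc6, a replication licensing factor, was lower (-1.33). Between cell types after withdrawal Cdc6 was higher in the labelled library (1.69). Cdc6 stood at 2.49 FPKM in normal cells after withdrawal and at 7.78 to 14.6 FPKM in the other libraries, so 1 library sets both differences. Withdrawal in labelled cells was at -0.17. Cdc45, a partner of the Mcm helicase, was listed at 0 in normal cells with LIF and labelled cells after withdrawal and stood at 26.0, 31.2 and 3.45 FPKM in labelled cells with LIF, normal cells after withdrawal and the 40-day library. It was 2-fold different in all 6 comparisons, which rest on those entries except in 40 days over LIF (-2.60).

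Of the genes for turnover of p27 and G1 cyclins, 8 of 9 were in the comparison. Skp2, which recognises p27 for degradation, stood at 23.2 to 32.1 FPKM over the 5 libraries and its cofactor Cks1b at 149 to 219 FPKM. Rbx1, a subunit of the same ligase, was the one past 2-fold at 24 hours, higher in normal cells after withdrawal (1.05) and lower in labelled than in normal cells there (-1.64). At 40 days Rbx1 was higher than with LIF (1.84) and than at 24 hours (2.35), and Fbxo31, which targets cyclin D1, was lower than with LIF (-1.13). The list's median was 0.16 and 0.051 for withdrawal in normal and labelled cells and -0.14 for 40 days over LIF. Of 5 genes of CDK activation, Ccnh was the one past 2-fold in any comparison, at 40 days over LIF (1.20), and the medians of that list were 0.043, -0.021 and 0.16 in the same order. Of the S and M phase cyclins with Cdk1, 5 of 6 were in the comparison. Ccnb1, which drives mitosis, was lower in the labelled library with LIF (-1.33) and higher in labelled cells after withdrawal than with LIF (1.14). It stood at 18.6 FPKM in labelled cells with LIF and at 24.0 to 48.2 FPKM in the other libraries, so both differences share its lowest value. Withdrawal in normal cells went the other way (-0.98). The medians of the S and M phase list were -0.16 and 0.062 for withdrawal in normal and labelled cells and -0.38 for 40 days over LIF.

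**Figure D4:**
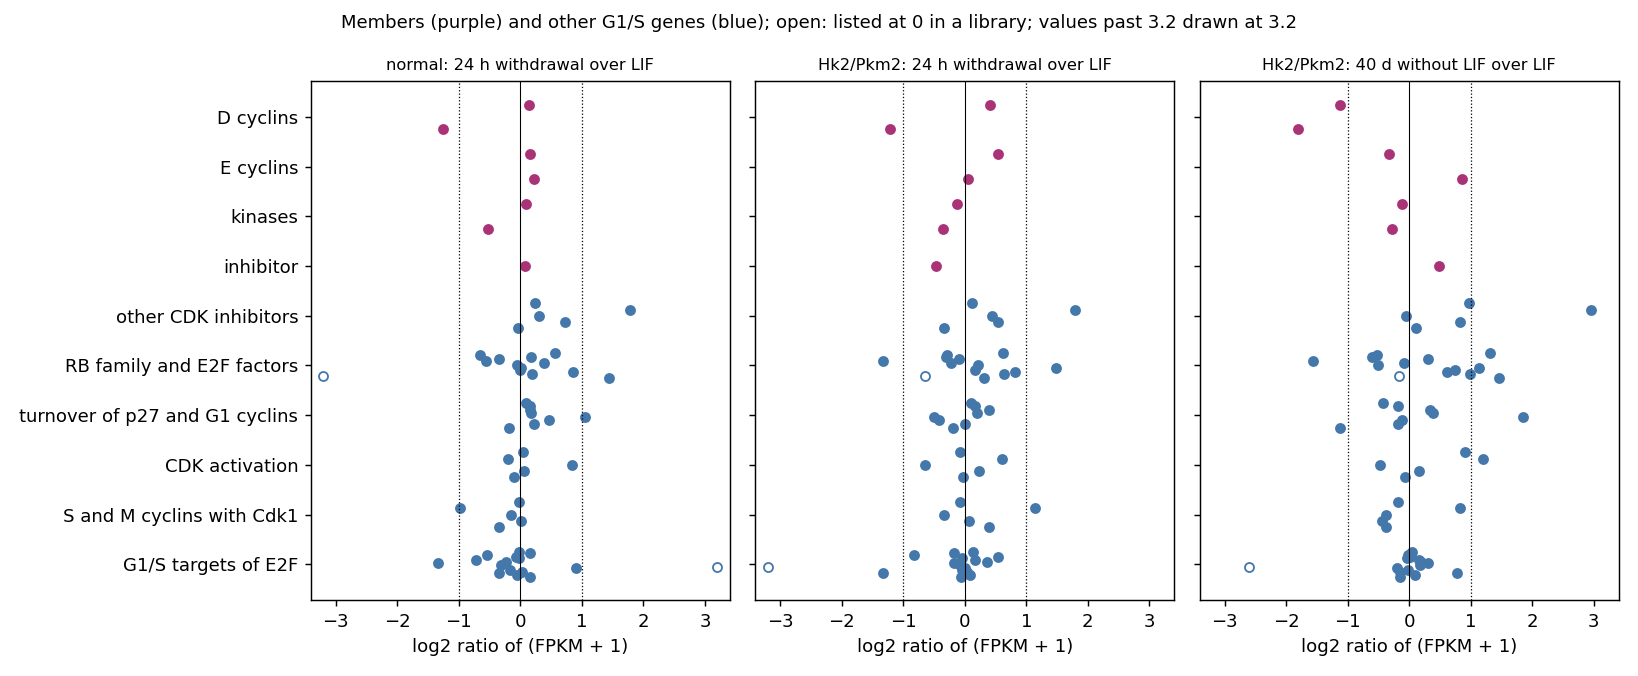
Log2 ratio of FPKM + 1 (horizontal) for members (purple) and other G1/S genes (blue) by list, 1 point per gene, for withdrawal in normal cells, withdrawal in cells labelled as overexpressing and 40 days over LIF, with dotted lines at 2-fold. Open circles are genes listed at 0 in a library, and values past 3.2 are drawn at 3.2. Ccnd3 is below -1 in all 3 panels and Ccnd1 in that of 40 days. Cdkn1c is the highest filled point among other inhibitors (1.79, 1.80 and 2.95). The medians of the E2F targets lie near 0.

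The genes whose 5-library pattern lay closest to each member were taken by Euclidean distance of centred log2(FPKM + 1) among 8841 genes never listed at 0. For Ccnd3 they were Tle5 at a distance of 0.29, Fam20c at 0.31 and Trp53i11 at 0.34. Tle5 stood at 117 and 126 FPKM with LIF, 53.0 and 64.6 FPKM after withdrawal and 45.8 FPKM at 40 days. For Ccnd1 they were Srsf7, Fam120b and Ppp2r1b at 0.23 to 0.25, and for Cdkn1b Kazn, Ggh and C1ql1 at 0.096 to 0.15. For Ccnd2 they were Gas6, Anxa5 and Ints6l at 0.12 to 0.14, a pattern that includes its 0.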

How the data were processed

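RNA of 5 libraries was sequenced after TruSeq library preparation, per the labels' protocols. The authors deposited FPKM per RefSeq transcript. TopHat2 2.0.7, Cufflinks 2.0.2 and mm9 are named in the submitters' processing notes. No source used here gives their settings.

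Gene symbols came from a RefSeq table (GRCm38.p6, names only), matched on transcript accession for 28066 of 28698 transcripts, and FPKM was summed per gene. Genes holding a hyphen (337) were dropped, and 9590 genes averaging 1 FPKM or more were kept. Ratios are differences of log2(FPKM + 1), which understate the change of low genes. "2-fold" means a log2 ratio of at least 1 or at most -1. Limma 3.58.1 (R 4.3.3; lmFit, eBayes with trend, Benjamini-Hochberg over all 9590 genes) was fitted to 4 libraries with cell type and culture. This leaves 1 residual degree of freedom, the interaction, so its SE measures agreement between these cultures or cell types and not replicate error. It was tested on simulated data. At the spread fitted to these libraries it passed none of the genes given a known change in cell type, so a count of 0 passing genes says nothing about the absence of differences. Coordinates are GENCODE vM1 on NCBIM37 (mm9). Copies of the transcripts were sought with blastn, and promoters were placed on mm9 by exact match.

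Counting error alone, from the rough fragment estimates, is at most about 14.4% for Ccnd2 and at most about 4.72% for Ccne2. The members and lists were chosen with earlier results of these data known. All 9 members are named, with list genes past 2-fold (at most 4 per list and comparison) and the 3 nearest patterns. A list gene that the rule would name is not reported here. Other genes named, such as Cdkn1a and Skp2, and the overlapping genes were chosen after their values were seen. Alternatives were a pseudocount of 0.1, no filter, median-ratio scaling, quantile normalization, the highest transcript alone, genes never listed at 0, and eBayes without trend.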

Additional observations from a re-analysis of the deposited data

Results flagged for a closer look

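For 4 members the sign of a difference was opposite in the groups compared, with 1 library on each side, and the difference was not tested. Ccne1 was lower in the library labelled as overexpressing with LIF (-0.21) and higher after withdrawal (0.18). Ccne2 was higher with LIF (0.14) and lower after withdrawal (-0.020), a sign that median-ratio scaling and quantile normalization turned. Cdk4 differed with withdrawal by 0.096 in normal cells and by -0.13 in labelled cells. Cdkn1b differed with withdrawal by 0.080 in normal cells and by -0.47 in labelled cells. All are log2 ratios of FPKM + 1.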

How the results depend on the processing

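No filter and leaving out genes listed at 0 cannot change the ratio of a member compared. The highest transcript alone can change only the ratios of Ccne2 and Cdk2. Part of the following agreement was therefore fixed in advance. Of 252 recomputed log2 ratios of members under 6 alternatives, 251 stayed on their side of 2-fold. The other is Cdkn1b at 40 days over 24 hours, at 1.01 with a pseudocount of 0.1. With it the members past 2-fold in that comparison numbered 2 instead of 1, and 2 also with no filter, which admits Ccnd2. Leaving out genes listed at 0 lowered the count of all genes past 2-fold from 904 to 541 between cell types with LIF, from 899 to 550 after withdrawal and from 971 to 618 for withdrawal in normal cells. Of the calls, 314, 300 and 304 rested on an entry of 0 in the pair, and the share past 2-fold went from 9.43% to 6.12%, from 9.37% to 6.22% and from 10.1% to 6.99%. Signs of uncalled member ratios near 0 turned for Cdk4 (cell type with LIF, 0.016 under quantile normalization; 40 days over 24 hours, -0.061 under median-ratio scaling) and for Cdk2 with its highest transcript alone (-0.30 at 40 days over 24 hours). The Ccnd3 ratio lay between -1.27 and -1.17 for withdrawal in normal cells and between -1.22 and -1.16 in labelled cells. In limma 0 genes passed for either term in the alternatives run, which says nothing about stability, since the fit has little power at the spread of these libraries. The adjusted p of Ccnd3 for withdrawal in limma ranged from 0.185 to 0.353. The unadjusted limma p was under 0.05 for 875 to 1707 genes for cell type and 1105 to 1981 for withdrawal. Both highest counts come from the setting with no filter, which tested 21930 genes instead of 9590. The raw counts therefore cannot be compared with each other without the number of genes tested. No paired analysis was possible because each group has 1 library and so no replicate numbers to pair, and the limma fit already sets cell type against culture. Without any 1 of its 4 libraries that fit has no residual degree of freedom.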
